A study of Mus musculus with 8 samples.

Results

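The cyclin-dependent kinase inhibitors Cdkn1a, Cdkn1b, Cdkn1c, Cdkn2a, Cdkn2b, Cdkn2c and Cdkn2d and the pocket proteins Rb1, Rbl1 and Rbl2 were followed in rib chondrocytes of mouse embryos, the cells that build cartilage. They were found as every probe set whose only gene symbol in the 2016 platform annotation is one of these 10 names, which gave 17 of the 45101 probe sets on the array and 10 of the 18193 genes that have a probe set with a single symbol. RNA came from 8 samples on 8 Affymetrix arrays: 4 from FVB embryos labelled Hoxc8 transgenic and 4 from FVB embryos labelled wild type, all at stage E18.5. Embryos of 4 litters were grouped by genotype, giving 1 sample per genotype from each, and litters 1 to 4 here are the replicate numbers 1 to 4. Rib cages were digested with collagenase and trypsin before RNA was taken, per the labels. In the series design the control samples are coded TA and the transgenic ones TR, and no further allele is named. The sources used here do not give the promoter of the transgene, the number of embryos in a sample or their sexes.

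Cyclin-dependent kinases drive a cell from G1 into S phase, and the inhibitors hold them back. The Cip/Kip proteins p21 (Cdkn1a), p27 (Cdkn1b) and p57 (Cdkn1c) bind many cyclin-kinase complexes, whereas the INK4 proteins (Cdkn2a, Cdkn2b, Cdkn2c and Cdkn2d) bind the kinases Cdk4 and Cdk6, the partners of D cyclins. Pocket proteins, the products of Rb1, Rbl1 (p107) and Rbl2 (p130), bind E2F transcription factors and keep S phase genes silent until the kinases phosphorylate them. In mice, p57 is needed for chondrocytes to leave the cell cycle on their way to hypertrophy, and loss of p107 and p130 together leaves chondrocytes dividing for too long and shortens the limbs.

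The values are MAS5 signals, linear intensities without a unit that had been scaled so that every array has the same trimmed mean (500). The medians of the arrays ranged from 107 to 121, and pairs of arrays correlated across all probe sets at a Spearman coefficient of 0.924 to 0.943. Precision is limited by having 4 arrays per genotype. A probe set was tested if its mean reached 110.03, the median of all probe set means, on the scale log2(signal + 22.2), on which differences of dim genes are understated. All 11 chondrocyte markers listed, among them Col2a1, Acan and Sox9, passed the filter, and the summed signal of the 11 lay between 254000 and 292000 in transgenic samples and between 243000 and 324000 in control samples. Markers of other cells were present too: all 10 genes of perichondrium and fibroblasts, among them Col1a1 and Col3a1, passed, with sums of 167000 to 197000 in transgenic and 187000 to 206000 in control samples, as did all 10 of skeletal muscle. Hoxc8 gave signals of 4096, 3400, 3810 and 4235 in transgenic samples of litters 1 to 4, against 4112, 3066, 3755 and 3143 in control samples (0.15 log2, SE 0.12, limma adjusted p = 0.9998), so its level checks the genotype labels little. The sources used here do not say whether that probe set reads the transgene.

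Between genotypes none of the cyclin-dependent kinase inhibitors and pocket proteins passed the test. Of their 17 probe sets 11 passed the signal filter, covering 8 of the 10 genes, and Cdkn2a and Cdkn2b were below it. By limma 0 of the 11 passed an adjusted p of 0.05, 0 had an unadjusted p under 0.05, and 0 passed with litter as a block in either count. Over all 22519 probe sets tested 0 passed (0%), with 246 at an unadjusted p under 0.05, and with the block 0 (0%), with 752. Both unadjusted counts are below a share of 0.05. The fitted difference of transgenic minus control was positive for 8 and negative for 3 of the 11 probe sets, with a median of 0.01 log2, beside 0.00 log2 over all tested probe sets. The 95% interval stayed inside 1.5-fold, up or down, for 9 of the 11, and both exceptions were probe sets of Cdkn1a. With litter as a block it did so for 10 of the 11, since the interval of Cdkn1a 1424638_at narrowed to 0.958 to 1.34-fold. Without the block, spread between litters stays in the error. The SE of each of the 11 was then larger, for Cdkn1a 1424638_at 0.28 against 0.11 log2 with the block. Genotype intervals and p-values of single genes below are without the block. Half-widths of the 11 intervals without it ran from 0.186 to 0.606 log2, beside a median of 0.355 log2 over all tested probe sets. The share of all tested probe sets inside 1.5-fold was not counted. In bulk RNA, fewer cells of a type and less RNA per cell cannot be told apart.

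**Figure D1:**
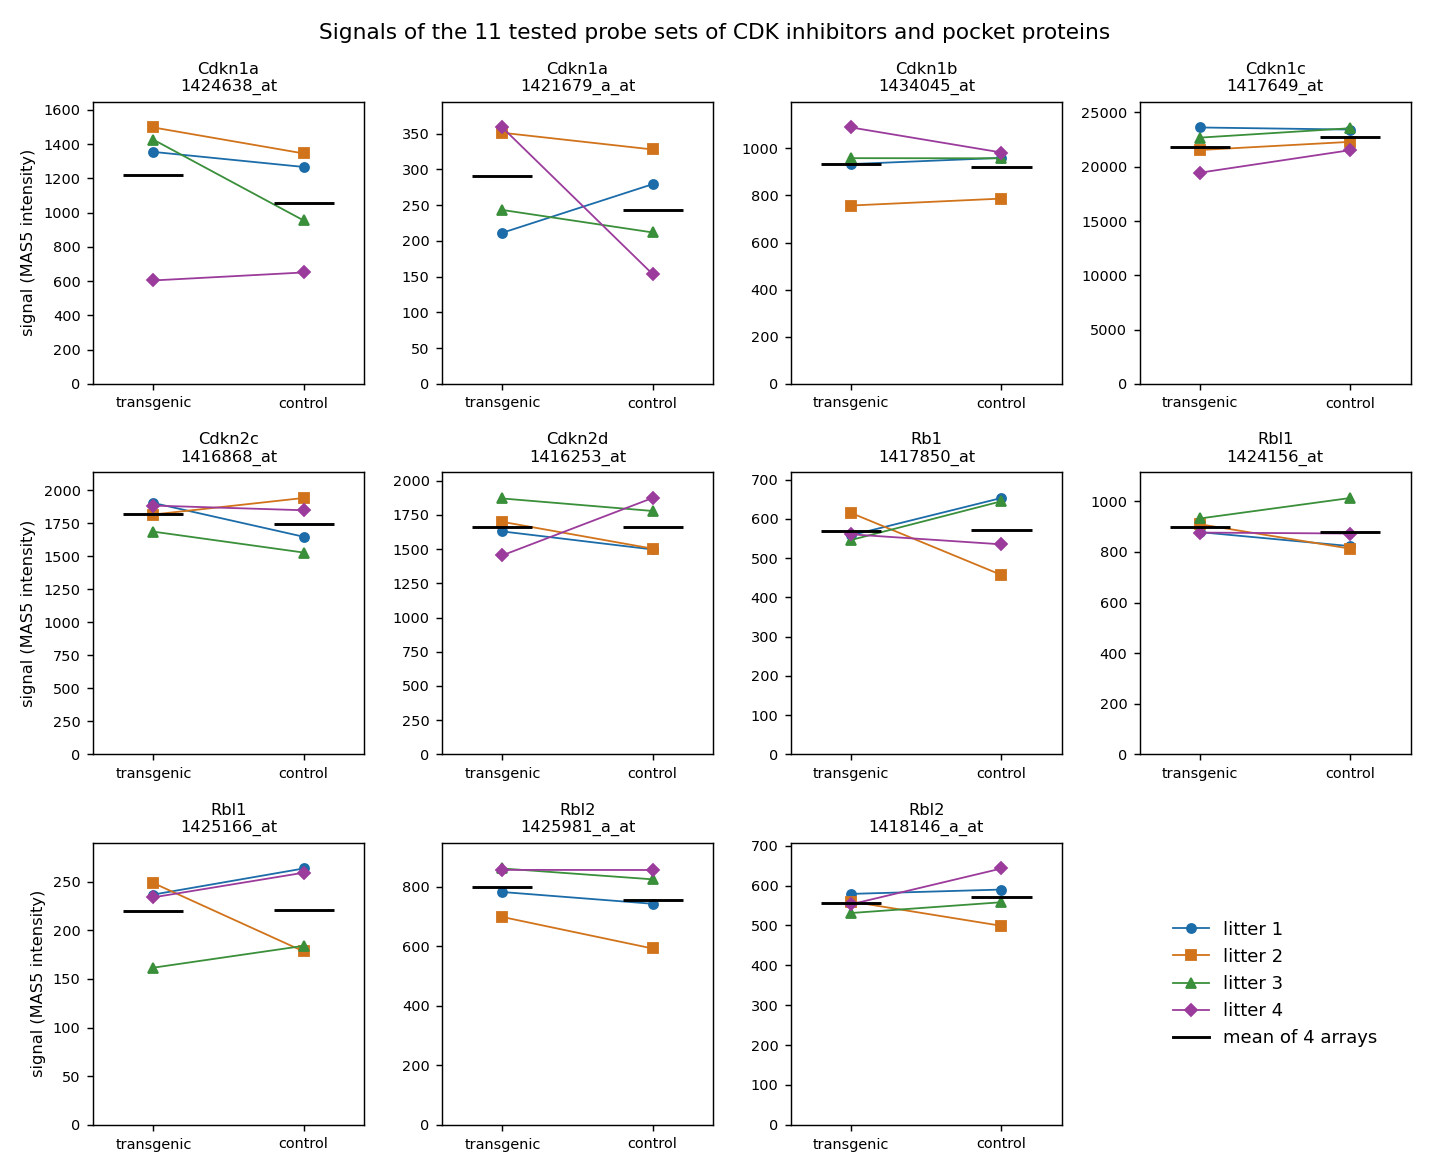
Signals (MAS5 intensity, vertical axes from 0) of the 11 tested probe sets in transgenic samples (left) and control samples (right). Coloured lines join both samples of a litter and black bars are means of 4 arrays. For Cdkn1a 1424638_at both samples of litter 4, at 604 and 650, lie under all others, and in every panel the genotypes overlap.

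Cdkn1c is the Cip/Kip gene tied most closely to cartilage. Its probe set gave 23619, 21543, 22685 and 19457 in transgenic samples of litters 1 to 4, against 23426, 22296, 23551 and 21531 in control samples. The genotypes overlapped, and the transgenic sample was higher in litter 1 and lower in litters 2, 3 and 4. The means were 21826 ± 1793 in transgenic and 22701 ± 963 in control samples (SD, n = 4 each), a fitted fold of 0.96 with a 95% interval from 0.843 to 1.09 (limma adjusted p = 0.9999). This was the narrowest interval of the 11 probe sets.

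Cdkn1b encodes p27, which accumulates in resting cells. Its tested probe set gave 933, 757, 958 and 1088 in transgenic samples, against 959, 787, 958 and 982 in control samples. Litter 2 was the lowest in both genotypes, and litters 1 and 2 differed in the opposite direction from litters 3 and 4. The fold was 1.01, with an interval from 0.825 to 1.24 (limma adjusted p = 0.9999).

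Cdkn1a encodes p21, an inhibitor that p53, growth factors and stress can induce, and both its probe sets were tested. Probe set 1424638_at gave 1354, 1497, 1425 and 604 in transgenic samples, against 1266, 1345, 954 and 650 in control samples. In both genotypes litter 4 lay far below the other litters. The means were 1219.8 ± 414.9 in transgenic and 1054 ± 318 in control samples (SD, n = 4 each), a fold of 1.13 with an interval from 0.744 to 1.72 (limma adjusted p = 0.9999). Probe set 1421679_a_at gave 211, 351, 243 and 359 in transgenic samples, against 279, 328, 212 and 154 in control samples. Here litter 4 held both the highest and the lowest array, the transgenic sample being 1.12 log2 higher, and litter 1 differed the other way, by -0.37 log2. The fold was 1.19, with an interval from 0.841 to 1.70 (limma adjusted p = 0.9999). In litters 1 and 4 the probe sets of Cdkn1a thus differed between genotypes in opposite directions. Leaving out both samples of litter 4 gave -0.03 log2 for 1421679_a_at and 0.27 log2 for 1424638_at. Leaving out only its transgenic or only its control sample gave 0.48 or -0.03 log2 for 1424638_at. For 1421679_a_at these values were 0.15 and 0.07 log2. With only one of them left out, litter 4, low in both genotypes for 1424638_at, stays in the other genotype alone.

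The RefSeq table lists 2 start sites for Cdkn1a, and their windows, from 250 bases before to 50 after a start, are shown because the probe sets did not move alike. The sources used here do not say which start either probe set reads. The windows are from assembly GRCm38.p6, plus strand, at chr17:29090729-29091028 and chr17:29093519-29093818, 2790 bases apart, and are given 5′ to 3′. Capitals mark exact matches to the p53 decamer in the upstream window and to the GC box GGGCGG, the site of Sp1, in the downstream one.
Upstream start: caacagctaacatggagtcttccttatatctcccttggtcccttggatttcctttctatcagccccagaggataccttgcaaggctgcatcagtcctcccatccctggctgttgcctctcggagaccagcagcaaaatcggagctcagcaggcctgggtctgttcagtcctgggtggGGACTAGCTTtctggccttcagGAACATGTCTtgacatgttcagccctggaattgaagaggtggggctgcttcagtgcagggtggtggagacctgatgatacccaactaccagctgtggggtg
Downstream start: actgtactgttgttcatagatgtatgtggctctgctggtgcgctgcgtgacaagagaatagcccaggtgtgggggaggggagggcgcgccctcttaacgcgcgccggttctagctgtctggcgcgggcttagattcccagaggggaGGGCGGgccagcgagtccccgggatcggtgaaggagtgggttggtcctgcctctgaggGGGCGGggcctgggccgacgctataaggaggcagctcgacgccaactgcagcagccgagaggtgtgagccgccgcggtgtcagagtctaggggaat
The upstream window held 2 matches to the p53 decamer, a site found in 8.36% of the 32851 windows of the table, and 0 GC boxes. The downstream window held 0 p53 decamers and 2 GC boxes, with first bases at -104 and -46 from the start, and 23 CpG dinucleotides beside 2 in the upstream one. Both strands were searched for every motif. GC boxes stood in 35.7% of all windows and in 9 of the 11 windows of 8 members, and the AP-1 motif TGANTCA stood in 7.81% of all windows and in 0 of the 11. The E2F motif TTNNCGC stood in 20.2% of all windows and in 5 of the 11, among them that of Rbl1 with 3 matches, of which the pair at -19 and -17 overlap. A match is a description of the letters.

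**Figure D2:**
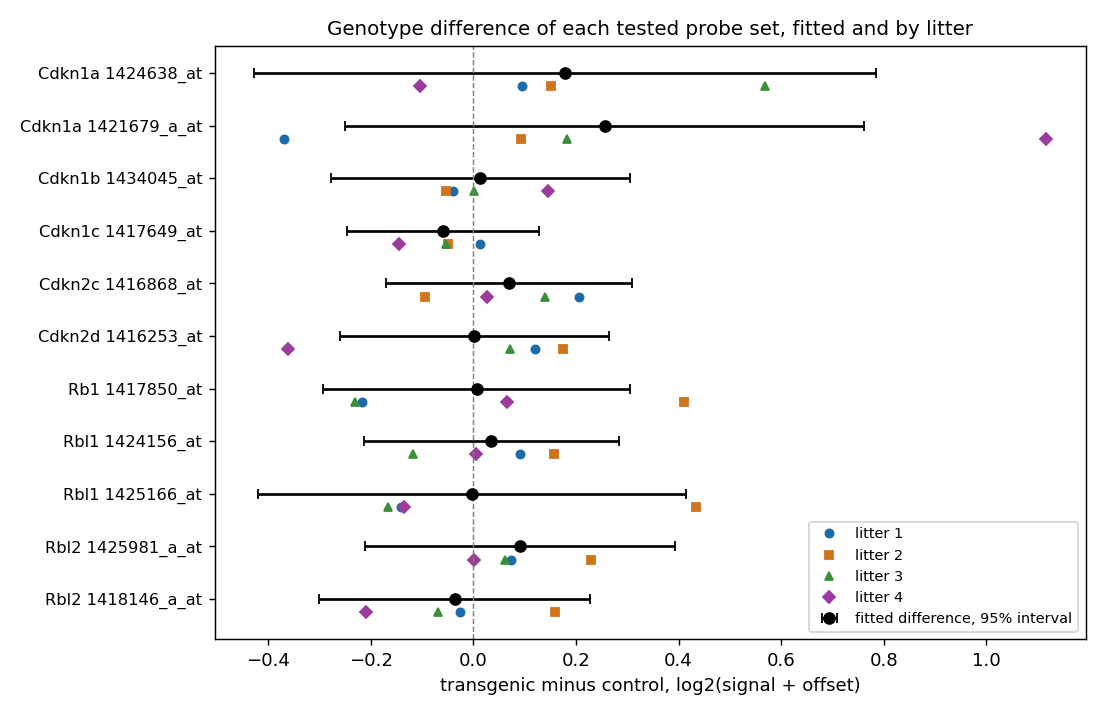
Difference of transgenic minus control on the scale log2(signal + offset) for the 11 tested probe sets. Black points and bars are the fitted difference with its 95% interval over 8 arrays, and coloured points below them are the 4 litters. Every interval includes 0, and Rbl2 1425981_a_at is the only row with all 4 litters above 0.

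Of the INK4 genes, Cdkn2c and Cdkn2d were above the filter. Cdkn2c encodes p18, and its probe set gave 1904, 1817, 1687 and 1885 in transgenic samples, against 1648, 1942, 1529 and 1849 in control samples. The transgenic sample was higher in litters 1, 3 and 4 and lower in litter 2. The fold was 1.05, with an interval from 0.888 to 1.24 (limma adjusted p = 0.9999). Cdkn2d encodes p19, and its probe set gave 1630, 1700, 1871 and 1455 in transgenic samples, against 1498, 1504, 1779 and 1874 in control samples. The transgenic sample was higher in 3 litters and lower in litter 4, and the means were 1664 ± 172 in transgenic and 1664 ± 192 in control samples (SD, n = 4 each). The fold was 1.00, with an interval from 0.834 to 1.20 (limma adjusted p = 0.9999).

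The pocket protein Rb1 gave 558, 615, 546 and 561 in transgenic samples, against 653, 457, 645 and 535 in control samples. The control samples spread more widely, on both sides of the transgenic ones, and the litters split, with litters 2 and 4 higher and litters 1 and 3 lower in transgenic samples. The means were 570.2 ± 30.6 in transgenic and 573 ± 94 in control samples (SD, n = 4 each), a fold of 1.00 with an interval from 0.816 to 1.24 (limma adjusted p = 0.9999).

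Rbl1, the pocket protein gene that is itself an E2F target, had 2 tested probe sets. The brighter, 1424156_at, gave 878, 909, 932 and 876 in transgenic samples, against 823, 813, 1013 and 873 in control samples, a fold of 1.02 with an interval from 0.862 to 1.22 (limma adjusted p = 0.9999). The other, 1425166_at, gave 237, 248, 162 and 234 in transgenic samples, against 264, 178, 184 and 259 in control samples, a fold of 0.998 with an interval from 0.748 to 1.33 (limma adjusted p = 0.9999). Both probe sets were higher in transgenic samples in litter 2 and lower in litter 3, and they differed in sign in litters 1 and 4.

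Rbl2, the pocket protein that predominates in resting cells, also had 2 tested probe sets. Probe set 1425981_a_at gave 782, 698, 861 and 856.4 in transgenic samples, against 743, 592, 825 and 856.0 in control samples. The transgenic sample was higher in all 4 litters, by 0.23 log2 in litter 2 and by 0.00 log2 in litter 4, with a fitted fold of 1.07 and an interval from 0.864 to 1.31 (limma adjusted p = 0.9999). Probe set 1418146_a_at gave 579, 560, 531 and 553 in transgenic samples, against 590, 499, 558 and 643 in control samples, higher in litter 2 and lower in the other litters. Its fold was 0.975, with an interval from 0.812 to 1.17 (limma adjusted p = 0.9999).

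The signs were counted over litters. Of the 11 tested probe sets 1, Rbl2 1425981_a_at, was higher in transgenic samples in all 4 litters, where 5.2% of all tested probe sets were, and 0 were lower in all 4, where 5.43% were. In 8 of the 11 the sign was shared by 3 litters and in 2, those of Cdkn1b and Rb1, it was split evenly. The genotypes did not overlap for 0 of the 11, and for 1.02% of all tested probe sets. The counts for all 4 litters and for overlap are close to the shares of the array. For signs shared by 3 litters or split evenly, no share of the array was taken.

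The 6 probe sets below the filter were Cdkn2a, Cdkn2b and second or further probe sets of Cdkn1b, Rb1 and Rbl1. Cdkn2a, whose locus encodes p16 and, from another reading frame, p19ARF, gave 6.58, 58.9, 61.2 and 56.1 in transgenic samples, against 4.68, 34.7, 6.36 and 57.01 in control samples. Cdkn2b, which encodes p15 and can be induced by TGF-beta, gave 36.5, 72.1, 101 and 77.1 in transgenic samples, against 63.7, 113, 10.5 and 25.2 in control samples. All but 1 of these 16 values lay under 110.03, and for both genes the genotypes overlapped. In the fit without a filter, the differences were 0.54 log2 (SE 0.44) for Cdkn2a and 0.48 log2 (SE 0.43) for Cdkn2b (limma adjusted p = 0.9999 each).

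The probe set 1432604_at of Rbl1 was the only one of the 17 whose genotypes did not overlap, beside 1.8% of all 45037 probe sets without the filter. It gave 35.6, 62.2, 68.8 and 59.8 in transgenic samples, against 31.4, 35.3, 30.3 and 3.76 in control samples. The transgenic sample was higher in all 4 litters, by 0.11 log2 in litter 1 and 1.66 log2 in litter 4, and without a filter the fitted difference was 0.78 log2 (SE 0.325, limma adjusted p = 0.9999). Every value lay below the filter, and the tested probe sets of Rbl1 differed by 0.03 and 0.00 log2.

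**Figure D3:**
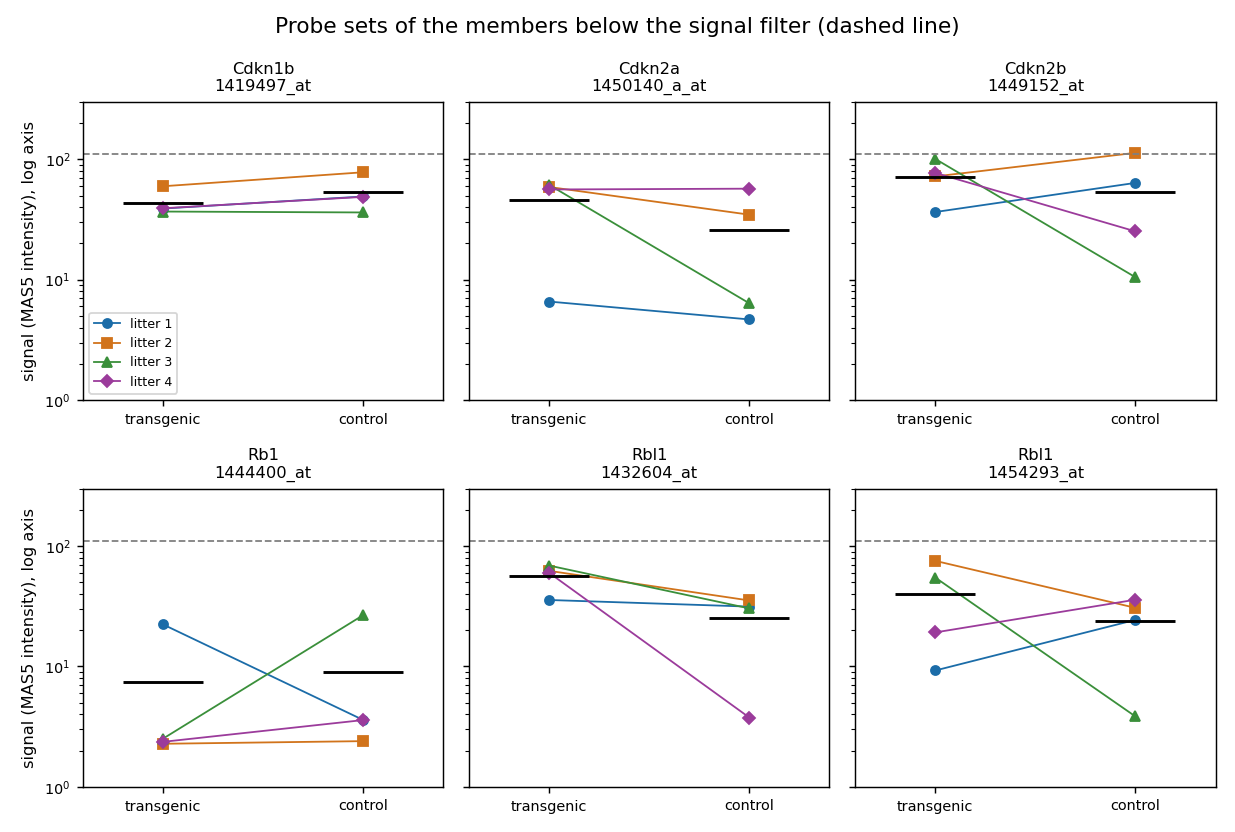
Signals (MAS5 intensity, log axis) of the 6 probe sets below the filter in transgenic samples (left) and control samples (right). Lines join both samples of a litter, black bars are means of 4 arrays and the dashed line is the filter at 110.03. Only Rbl1 1432604_at has every transgenic sample above every control sample, with 35.6 as the lowest transgenic and 35.3 as the highest control signal.

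Between litters, 1 of the 11 probe sets differed. Cdkn1a 1424638_at differed between the 4 litters by 2.22-fold from the highest, litter 2, to the lowest, litter 4 (limma moderated F-test adjusted for genotype, adjusted p = 0.0034). By the same test 2027 of the 22519 probe sets passed (9%), so that 1 of 11 is close to the share of the array. The call was lost without litter 4 (adjusted p = 0.43). It was also lost when the spread was moderated without an intensity trend (adjusted p = 0.117), a setting under which 0 of the 22519 probe sets passed. Probe set 1421679_a_at of Cdkn1a was highest in litter 2 as well, but was lowest in litter 3 and did not pass (adjusted p = 0.478).

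The other tested probe sets varied less between litters than Cdkn1a 1424638_at. Cdkn1a 1421679_a_at ranged over 1.45-fold, and Rbl1 1425166_at over 1.4-fold (limma moderated F-test, adjusted p = 0.383), lowest in litter 3. Cdkn1b 1434045_at and Rbl2 1425981_a_at were both highest in litter 4 and lowest in litter 2, by 1.33-fold and 1.32-fold, with unadjusted p of 0.0407 and 0.0423 and adjusted p of 0.162 and 0.165 (limma moderated F-test). For Cdkn1c the litters lay within 1.15-fold (adjusted p = 0.293), and for Cdkn2c and Cdkn2d within 1.17-fold (adjusted p = 0.43 and 0.599). For Rb1 they lay within 1.13-fold and for Rbl1 1424156_at within 1.14-fold (adjusted p = 0.807 and 0.646), and for Rbl2 1418146_a_at within 1.12-fold (adjusted p = 0.779). The median range over the 11 probe sets was 1.17-fold, and over all tested probe sets 1.32-fold. These medians were not matched for signal, and 9 of the 11 also reached a stricter filter at the 75th percentile of probe set means.

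Genes listed as induced when tissue is digested were mostly highest and lowest in the same litters as Cdkn1a 1424638_at. No undigested sample is among the 8, so their induction was not measured here. All 20 listed genes of this response, among them Fos, Egr1, Atf3 and Myc, passed the litter test, where 9.91% of the probe sets that represent a gene did. The list was chosen with earlier results of these data known, and without an intensity trend 0 of the 22519 probe sets passed. Of the 20, 19 were highest in litter 2 and 16 lowest in litter 4, as Cdkn1a 1424638_at was. Relative to the mean of the litters their medians were 0.00, 0.49, -0.02 and -0.47 log2 in litters 1 to 4, beside 0.27, 0.39, 0.11 and -0.77 log2 for Cdkn1a 1424638_at. The other probe set of Cdkn1a, 1421679_a_at, stood at -0.08, 0.37, -0.17 and -0.12 log2, lowest in litter 3. The summed signal of the 20 genes lay between 151000 and 267000 in transgenic samples and between 143000 and 272000 in control samples, and Il6 was the dimmest at a mean of 256. Between genotypes 17 of the 20 differences were positive and 3 negative, with a median of 0.09 log2, and 0 were called. The sums of cartilage genes and of endothelial genes were also highest in litter 2 and lowest in litter 4, though not every gene was. The summed signal of the 11 chondrocyte markers was 277000, 308000, 259000 and 249000 in litters 1 to 4, with 8 of 11 highest in litter 2, 6 of 11 lowest in litter 4 and 4 of 11 called. That of 6 hypertrophic chondrocyte markers was 15500, 17100, 14400 and 12400, with 3 of 6 called. Of these markers 4 were highest in litter 2 and 3 lowest in litter 4. The sum of 6 endothelial genes was 1400, 1540, 1460 and 1120, with 0 of 6 called. Of the endothelial genes 3 were highest in litter 2 and 5 lowest in litter 4. The sum of 16 p53 target genes ran likewise, at 24400, 31400, 24300 and 22600, with 3 called. Of these 7 were highest in litter 2 and 8 lowest in litter 4. So did that of 16 transcriptional regulators of the inhibitors, at 29400, 31500, 30100 and 26700, with 4 called. Of the regulators 5 were highest in litter 2 and 6 lowest in litter 4. Other lists ran differently. The sum of 10 skeletal muscle genes was 40400, 28400, 30000 and 42900, with 5 of 10 called, and that of 10 perichondrium and fibroblast genes 192000, 185000, 200000 and 178000, with 3 of 10 called. Macrophage and neutrophil genes summed to 4870, 2890, 3840 and 5800, with 2 of 9 called, and erythroid genes to 4530, 3970, 2740 and 4600, with 1 of 4 called. Between genotypes 8 of the 9 macrophage and neutrophil genes were negative and 1 positive, with a median of -0.24 log2, and 0 were called. The part of these lists in the result was not tested, and a litter and the digestion of its samples cannot be told apart.

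**Figure D4:**
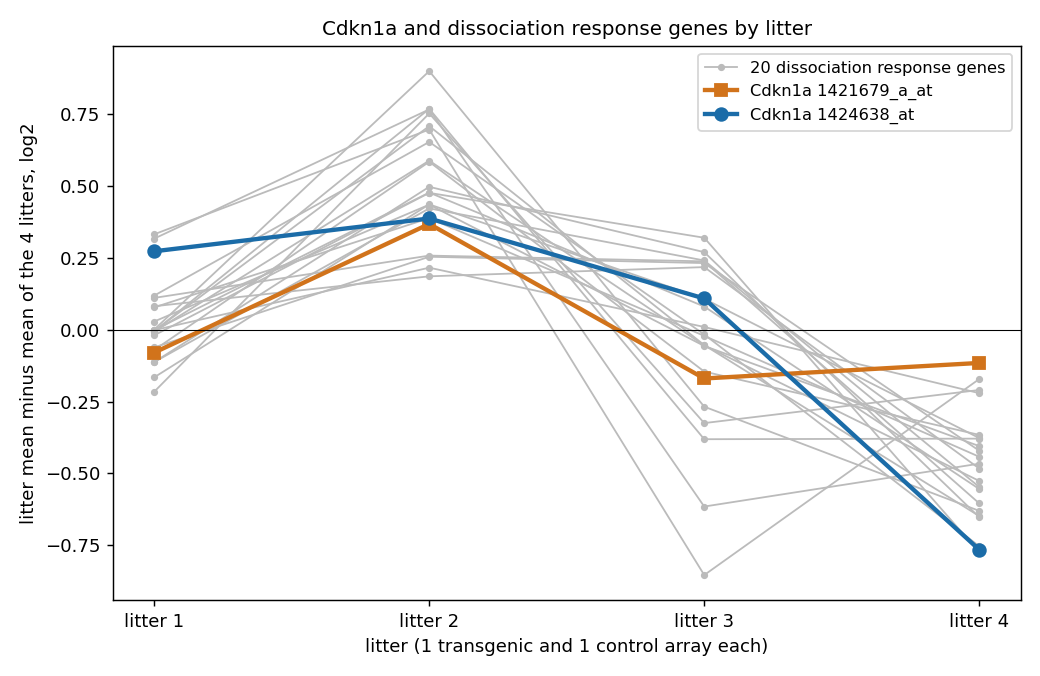
Litter means (1 transgenic and 1 control array each) relative to the mean of the 4 litters on the log2 scale, for both probe sets of Cdkn1a and the 20 dissociation response genes. In litter 4 Cdkn1a 1424638_at stands at -0.77 and 1421679_a_at at -0.12, and the median of the 20 genes is -0.47.

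Genes whose profile over the 8 arrays was most like that of a member were named by the root mean square difference of centred log2 values. For Cdkn1a 1424638_at they were Arrdc2 (0.104 log2), Fasn, the fatty acid synthase (0.149), and Hspg2, the basement membrane and cartilage proteoglycan perlecan (0.156), where the median over all genes was 0.518. In litter 4 these 3 stood at -0.79, -0.695 and -0.58 log2, which follows from choosing them for a profile like that of Cdkn1a. For Cdkn1c they were Sap30l (0.0229 log2), Gins1, a subunit of the replicative helicase (0.0306), and App (0.0319), beside a median of 0.207. Genes with little variation are alike by this measure.

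The genes around the inhibitors and pocket proteins were read from 8 lists with 116 genes, of which 103 were tested. Between genotypes 0 of the 103 passed in either direction by limma, with or without litter as a block, as did 0 of all 10989 genes (0%). The difference was positive for 54 and negative for 49 of the 103, and over all genes the median was 0.00 log2. Between litters 11 of the 103 passed, beside 9.91% of all genes.

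Of 13 genes of the G1 cyclins and kinases and their activators, 7 were positive, with a median of 0.01 log2. The list holds D and E cyclins and their kinases, the activating kinase Cdk7 with Ccnh and Mnat1, the phosphatase Cdc25a and the chaperone Cdc37. Ccne1, the cyclin E1 gene, had means of 832 ± 87.7 in transgenic and 746 ± 76.2 in control samples (SD, n = 4 each), a difference of 0.15 log2 (SE 0.12), and Cdk7, of the kinase that activates cyclin-dependent kinases, stood at 0.09. Of 9 genes that degrade Cip/Kip proteins 4 were positive, with a median of -0.04 log2. The ubiquitin ligase genes Cul4a and Ddb1 stood at 0.125 and 0.07 log2 (limma adjusted p = 0.9998 for each of these 4).

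Of 10 E2F and DP factors, the partners of the pocket proteins, 5 were positive, with a median of -0.02 log2. E2f6, a repressor of the family, had signals of 504, 517, 508 and 759 in transgenic samples, against 708, 567, 773 and 734 in control samples. It was lower in transgenic samples in litters 1 to 3 and higher in litter 4 (-0.28 log2, SE 0.15, limma adjusted p = 0.9998). E2f2, an activator, stood at 0.24 log2 (SE 0.19), and E2f8 was called between litters.

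Of 12 genes of the MuvB complex, with which Rbl1 and Rbl2 form the DREAM repressor, and of other corepressors 9 were positive, with a median of 0.03 log2. Mybl2, which replaces pocket proteins on MuvB in cycling cells, gave 211, 177, 172 and 168 in transgenic samples, against 92.1, 157, 165 and 155 in control samples. The groups did not overlap, as for 1.02% of all tested probe sets, with 168 as the lowest transgenic and 165 as the highest control signal. The difference was 0.335 log2 (SE 0.20, limma adjusted p = 0.9998), and Lin9, a core subunit, stood at 0.20 log2. Of 22 E2F target genes 9 were positive, with a median of -0.02 log2. Cdc45 and Rrm2, which act in replication and nucleotide synthesis, stood at -0.205 and 0.09 log2, and Cdt1 and Mcm2 were called between litters.

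Of 16 transcriptional regulators of the inhibitors 8 were positive, with a median of 0.00 log2. Zbtb17, a factor that activates Cdkn2b and Cdkn1a, stood at -0.26 log2 (SE 0.17), and Mdm4, an inhibitor of p53, at -0.23 log2 (SE 0.16). Foxo1, Foxo3, Klf4 and Myc, 4 of the 16, were called between litters. Of 16 p53 target genes 10 were positive, with a median of 0.08 log2. Gadd45a, a stress gene, stood at 0.21 log2 (SE 0.16) and Fas, a death receptor gene, at -0.43 log2 (SE 0.33). Btg2, Perp and Plk2 were called between litters, and Btg2 and Myc also belong to the dissociation genes.

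Of 6 tested imprinted neighbours of Cdkn1c 3 were positive, with a median of -0.015 log2. Tssc4 stood at 0.09 log2 (SE 0.105) and Igf2, the fetal growth factor gene, at -0.08 log2 (SE 0.12). Igf2 was called between litters.

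**Figure D5:**
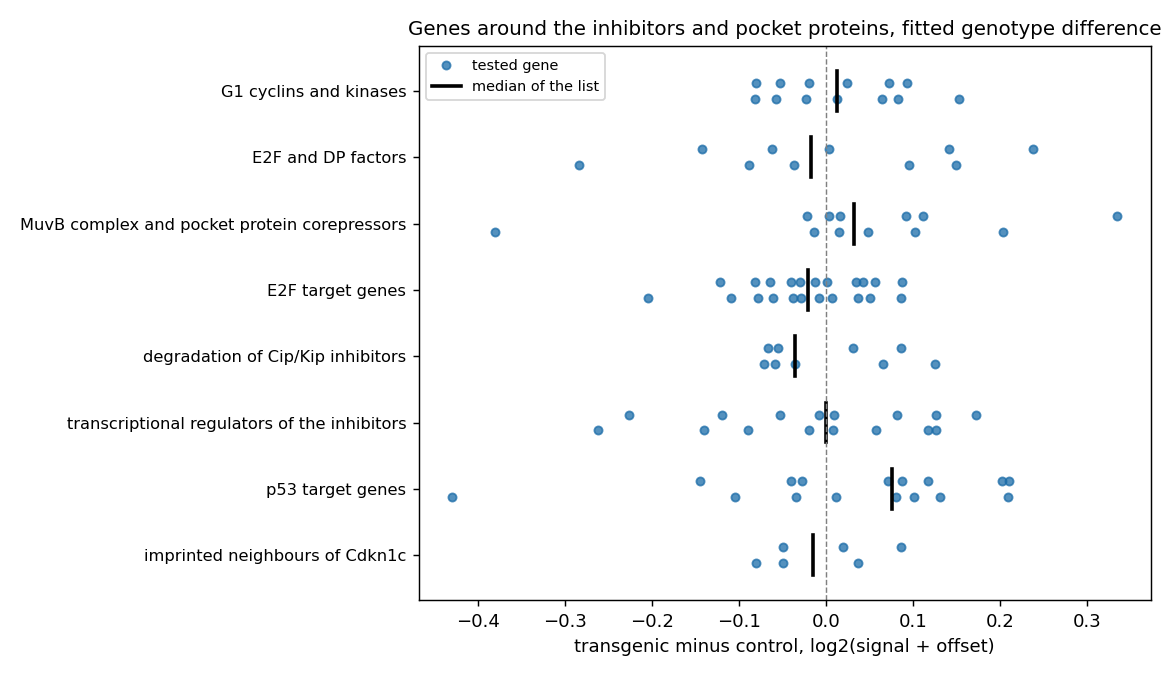
Fitted difference of transgenic minus control, log2(signal + offset), for each tested gene (points) of the 8 lists around the inhibitors and pocket proteins. Black bars are list medians, which lie between -0.04 and 0.08, and none of the points passed the test.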

How the data were processed

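The deposited values are linear signal intensities of every probe set on every array, and the authors made them with MAS5, per the submitters' processing notes. Its version, a genome build and detection calls are not given in the sources used here. No further normalization was applied. Signals were put on the scale log2(signal + 22.2), where 22.2 is the 20th percentile of all values. The 64 Affymetrix control probe sets were left out, and the 22519 probe sets whose mean reached 110.03 were tested. Symbols came from the platform annotation of 2016, in which 34945 probe sets had 1 symbol, 932 several and 9160 none, besides the control probe sets. A gene was represented by its brightest probe set. The genotype test was limma (version 3.58.1, R 4.3.3), two-sided over 8 arrays with no covariates and with the prior variance following intensity. The litter test was its moderated F-test adjusted for genotype, both with Benjamini-Hochberg adjustment over all tested probe sets or genes. Intervals are 95% confidence intervals. The steps were run on simulated data. For the genotype test these had the spread left after fitting litter, and no differences between litters. They therefore do not show the power of the main fit in the real data.

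Samples with the same replicate number also share a code in their descriptions, and the design takes 1 sample per genotype from each of 4 litters, so the number was read as the litter. In the check of this pairing, both arrays of a litter deviated from their groups with correlations of 0.0251, 0.434, 0.376 and 0.379 in litters 1 to 4. The highest correlation of each control array with a transgenic array of another number was 0.063, 0.0133, 0.0303 and 0.00416. Deviations were centred within each genotype, which lowers the correlations with other numbers where that with the same number is positive. The check thus bore out the pairing in litters 2 to 4 and not in litter 1, and the pairing rests on the labels. Litter is no term of the main fit and enters as a block in an alternative.

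The members and the gene lists were chosen with earlier results of these data known. The rule for named genes takes all members, Hoxc8, the 2 genes with the smallest unadjusted p of each of the 8 lists, and the 3 genes most like Cdkn1c and Cdkn1a. Alternatives were the litter block, other offsets, filters, normalizations and moderations, and leaving out each array or litter. Promoter windows are from RefSeq (GRCm38.p6), where 8 of the 10 members matched.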

Additional observations from a re-analysis of the deposited data

Results flagged for a closer look

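For the 17 probe sets and Hoxc8, 36 groups of 4 values were examined for a sample whose distance to its nearest neighbour exceeded Dixon's 95% critical share of the range. In 8 of them 1 sample did. For independent normal values about 1 in 20 groups would be flagged. These groups are linear signals and share arrays, so that rate is no background for the 8. No share over the array was taken. Among tested probe sets, Cdkn1a 1424638_at was 603.7 in the transgenic sample of litter 4 (nearest other 1354). Rbl1 1425166_at was 161.6 in the transgenic sample of litter 3 (nearest 233.9), and Cdkn1b 1434045_at was 786.5 in the control sample of litter 2 (nearest 957.5).

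The other 5 values belong to probe sets below the signal filter. Cdkn2a was 6.583 in the transgenic sample of litter 1 (nearest 56.14), and Cdkn1b 1419497_at was 59.72 in the transgenic sample of litter 2 (nearest 39.2). Rb1 1444400_at was 22.31 in the transgenic sample of litter 1 (nearest 2.517) and 26.7 in the control sample of litter 3 (nearest 3.59). Rbl1 1432604_at was 3.762 in the control sample of litter 4 (nearest 30.33).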

How the results depend on the processing

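Between genotypes, 0 probe sets, 0 member probe sets and 0 genes passed by limma under every alternative run, and with litter as a replicate block the 3 counts were 0 as well, so the block changed no call; it raised the number of member intervals inside 1.5-fold to 10, against 9 without it. The member differences gave 229 values under alternatives, of which 0 passed (smallest adjusted p 0.9998) and 31 had the opposite sign, none above 0.128 log2 in size. Rbl1 1425166_at turned to 0.015 with quantile normalization and to 0.021 with median centring. Leaving out single arrays or litters gave -0.031 to 0.464 for Cdkn1a 1421679_a_at, -0.03 to 0.48 for Cdkn1a 1424638_at, -0.062 to 0.108 for Cdkn1b, -0.056 to 0.122 for Cdkn2d, -0.128 to 0.086 for Rb1, -0.007 to 0.102 for Rbl1 1424156_at, -0.148 to 0.125 for Rbl1 1425166_at, -0.101 to 0.022 for Rbl2 1418146_a_at and -0.017 to 0.155 for Rbl2 1425981_a_at. The sign was kept throughout for Cdkn1c, at -0.099 to -0.005, and for Cdkn2c, at 0.01 to 0.124. Between litters, the number of probe sets called was 2027 and fell to 995 without a filter and to 0 without an intensity trend, where the member count was 0 and the adjusted p of Cdkn1a 1424638_at 0.117; the cause was not tested. It lay between 546 and 3047 when arrays or litters were left out, with 546 without control replicate 2, 786 without control replicate 3, 713 and 970 without transgenic replicates 2 and 3, and 3047, 562, 1046 and 1118 without litters 1 to 4. The member count lay between 0 and 1, and the adjusted p of Cdkn1a between 0.00133 and 0.43, the last without litter 4.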
